A study of Mus musculus with 12 samples.

Results

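Of the 37118 m6A peaks counted in mouse liver, 1820 carried at least 2 gene symbols after predicted genes (symbols made of Gm and a number) and RIKEN genes (symbols ending in Rik) were dropped from the annotation. In 42 of these 1820 peaks the symbols were repeats of 1 name, and the other 1778 peaks were shared by 2 or more different named genes. The shared peaks carried 1919 genes in 1014 combinations, against 32196 peaks annotated with 1 named gene and 3102 with none. For each shared peak the question was which of its genes it follows, judged by the genes' own peaks, meaning peaks annotated with that 1 symbol and nothing else.

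The peaks come from MeRIP-seq, in which fragmented liver RNA is pulled down with an antibody against N6-methyladenosine and sequenced. Cadmium samples came from wild-type male C57BL/6 mice that received 20 mg/kg/day CdCl2 by gavage and were sampled at day 90, and control samples came from the same kind of mice at 0 mg/kg/day. The labels give an age of 6 to 8 weeks and 6 animals per group, and 3 immunoprecipitated samples per group were counted. Whether each sample was 1 animal is not stated, so p-values measure the spread between these samples.

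N6-methyladenosine is an internal mark of messenger RNA that is written by a methyltransferase complex and read by proteins that steer splicing, translation and decay. A peak is a stretch of genome where immunoprecipitated fragments pile up, and it is tied to a gene only by position. Where genes overlap on opposite strands, lie inside each other, or are joined by a long read-through transcript in the annotation, a peak receives several names. Counting is not stated to use strand, so reads of overlapping genes cannot be told apart, and without input counts a change in RNA amount cannot be told apart from a change in the methylated share.

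Sequences are shown for 2 shared peaks that overlap a microRNA and were called, because there 1 of the names is a short RNA with a known product. The miR-22 hairpin runs into a peak named for Mir22, its host transcript Mir22hg and Tlcd2. miR-2139 lies in a peak shared with Klhdc7a. The capitals mark the seed, bases 2 to 8 of the mature RNA, and the sequences are those of RefSeq on GRCm38.p6.
mmu-miR-22-5p (chr11:75463734-75463755, plus strand): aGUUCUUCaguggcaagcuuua
mmu-miR-22-3p (chr11:75463772-75463793, plus strand): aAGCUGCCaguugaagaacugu
mmu-miR-2139 (chr4:139967531-139967554, minus strand): aGCUGCGCugcuccugguaacugc
The 3 mature RNAs have 3 different seeds. Mature microRNAs are far shorter than the fragments of 200 to 500 bp that were immunoprecipitated, so the peak counts are of the longer transcripts around them.

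Also shown are 3 promoter windows, because a shared peak lies on or beside them. Each runs from 250 bases before to 50 bases after the RefSeq start. Pelo, a ribosome rescue factor, starts inside the span of the integrin gene Itga1, and its window lies wholly within a peak that carries both names. The capitals mark AGTCC, the reverse complement of GGACT, the core of the preferred m6A sequence. Pelo and Itga1 lie on the same strand, which is the one printed, so GGACT itself is not in this window on the strand of these genes. The window's peak, at chr13:115089206-115091376, had 38.2, 42.6 and 38.4 CPM (counts scaled by TMM to a common library total) in cadmium samples and 56.7, 76.9 and 58.5 CPM in control samples, with no overlap (log2 change -0.69, adjusted p = 0.0317), beside -0.04 in the 2 own peaks of Itga1. Searched on both strands, GGACT or AGTCC was present in 45.5% of all 32851 RefSeq promoter windows of this length.
Pelo (chr13:115090109-115090408, minus strand): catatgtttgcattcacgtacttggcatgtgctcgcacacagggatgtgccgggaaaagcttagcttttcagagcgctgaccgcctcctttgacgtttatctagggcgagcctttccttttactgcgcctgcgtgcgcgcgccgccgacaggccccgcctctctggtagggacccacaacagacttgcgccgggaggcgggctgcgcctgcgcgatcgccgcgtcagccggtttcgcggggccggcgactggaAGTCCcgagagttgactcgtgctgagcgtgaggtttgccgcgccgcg
Tgtp1 and Tgtp2 are interferon-inducible GTPases whose peaks carry the name of Olfr56 as well. The shared peak at chr11:48991934-48992225 overlaps the transcribed end of the Tgtp1 window. The capitals mark GAAA, any 2 bases and GAAA again, the core of the interferon-stimulated response element, which was found on either strand in 3.44% of the windows.
Tgtp1 (chr11:48992197-48992496, minus strand): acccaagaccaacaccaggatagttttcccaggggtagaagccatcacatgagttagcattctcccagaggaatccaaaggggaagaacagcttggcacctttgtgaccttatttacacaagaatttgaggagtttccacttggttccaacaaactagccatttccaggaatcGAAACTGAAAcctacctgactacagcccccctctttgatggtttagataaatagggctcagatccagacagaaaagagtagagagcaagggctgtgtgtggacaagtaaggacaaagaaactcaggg
Tgtp2 (chr11:49064163-49064462, minus strand): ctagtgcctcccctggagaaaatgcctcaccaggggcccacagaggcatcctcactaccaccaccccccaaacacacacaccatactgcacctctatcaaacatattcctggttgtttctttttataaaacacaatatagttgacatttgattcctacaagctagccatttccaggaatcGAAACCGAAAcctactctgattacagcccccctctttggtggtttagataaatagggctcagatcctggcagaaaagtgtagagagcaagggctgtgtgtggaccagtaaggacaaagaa
The motif begins at base 174 of the Tgtp1 window and at base 181 of the Tgtp2 window. The windows were 69.3% identical over 322 aligned columns, and reads that fit both genes may have been divided between them. A match is a run of letters and was not tested as a bound site.

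Counts in all peaks totalled 40174736, 51205200 and 50171237 in cadmium replicates 1, 2 and 3, against 52338612, 46474259 and 46572869 in control replicates 1, 2 and 3. Shared peaks took 5.53%, 5.84% and 4.98% of the counts in the cadmium samples and 5.06%, 6.10% and 5.44% in the control samples. Their median width was 262 bp, against 231 bp for peaks with 1 named gene, and their median total over the 6 samples was 2594 counts, against 2240 counts. Of the shared peaks, 1688 had 2 genes, 52 had 3 and 38 had 4 or more. The longest label had 22 genes, all of the clustered protocadherin locus on chromosome 18, where many first exons are joined to common last exons. Summed own peaks of hepatocyte markers gave 12000 to 14123 CPM in cadmium samples and 13981 to 14866 CPM in control samples, with all 5 markers detected. Of these markers' 21 peaks, 4 were called, against 6.27% of all peaks.

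In 357 shared peaks the spans of the 2 genes overlapped tail to tail, with their ends on opposite strands, and in 79 they overlapped head to head. In 122 the smaller gene lay inside the larger on the opposite strand, and in 73 on the same strand. In 171 nested and 189 partly overlapping cases the strand of at least 1 of the genes was not given. In 604 the RefSeq spans of the 2 genes did not overlap at all. A gene is said to hold a peak where its RefSeq span (GRCm38.p6) overlaps the peak. Of 1695 shared peaks with every gene placed, 941 were held by every gene they named, 740 by some and not by others, and 14 by none.

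The genes with the most shared peaks included several that held none of them. Of 153 genes with 5 or more shared peaks, 30 held none. Fgfr2, a fibroblast growth factor receptor, named 55 shared peaks in 18 combinations, and the peaks lay 125 to 2721 kb beyond a span of 104 kb. Olfr56, an olfactory receptor gene with a span of 1.22 kb, named 17 shared peaks 37.3 to 155 kb away. Camta1, a calmodulin-binding transcription activator, named 11 shared peaks with Per3, 21.2 to 54.8 kb outside its own span. Cx3cr1, the fractalkine receptor of monocytes and macrophages, named 8 shared peaks 75.5 to 124 kb away. At these loci the second name was thus given to peaks beyond the RefSeq span of that gene.

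Cadmium against control was tested for all 37088 peaks that passed the low-count filter with edgeR's quasi-likelihood F test, and peaks with a Benjamini-Hochberg adjusted p under 0.05 were called. Of the 1778 shared peaks, all of which passed the filter, 89 were called, or 5.01%, against 6.27% of all peaks. Of these, 51 were higher in cadmium samples (2.87%, against 3.55% of all peaks) and 38 were lower (2.14%, against 2.72% of all peaks). The share of called peaks was thus near the background. The 89 fell in 59 gene combinations. The median log2 change was 0.00024 over the shared peaks and -0.0031 over all tested peaks. Samples of the groups did not overlap in 24.4% of the shared peaks, against 26.8% of all peaks. With the replicate number of the labels as a term in the model (the replicate block), 135 shared peaks were called (7.59%, against 8.48% of all peaks), 81 of them higher. The count depended on single samples: it was 16 without cadmium replicate 3 (0.9%, against 1.46% of all peaks) and 41 without control replicate 3 (2.31%, against 2.91%).

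The sharpest falls among called shared peaks lay in Per3, a repressor of the circadian clock. All 11 peaks named Per3/Camta1 lay in the span of Per3, and Per3 had no own peak, so the gene is seen in these data through shared peaks alone. Of the 11, 8 were called lower, with log2 changes of -2.01 to -1.29. The peak at chr4:151005118-151005953 had 5.27, 6.62 and 5.22 CPM in cadmium samples, against 21.2, 23.4 and 24.4 CPM in control samples. The groups were far apart, and the log2 change was -2.01 (SE 0.16, adjusted p = 0.000832). The peak at chr4:151012291-151012646 had 4.63, 4.90 and 4.31 CPM in cadmium samples and 11.6, 10.1 and 14.2 CPM in control samples (log2 change -1.37, SE 0.17, adjusted p = 0.00234). The remaining 3 peaks, 2 of them at the far upstream end of the locus, had log2 changes of -0.49 to -0.27 and were not called. Camta1 had 1 own peak, at 1.73, 3.35 and 2.52 CPM in cadmium samples and 2.098, 1.18 and 1.27 CPM in control samples. Its groups overlapped and its log2 change was 0.75.

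Whether a shared peak moved like a gene was tested as the change of its counts relative to the summed own peaks of that gene within each sample, an interaction term in the edgeR model. This departure is a log2 difference, and it is 0 where the shared peak changes as the gene's own peaks do. It could be tested for 1580 pairs of a shared peak and a gene, in 1242 shared peaks. Of these pairs, 51 departed (3.23% of all pairs tested), with the shared peak lower than the gene's own peaks in 42 and higher in 9. In 45 of the 51 the shared peak and the own peaks had changes of opposite sign. The 51 pairs involved 51 peaks but only 20 genes. As a background chosen after the data were seen, each of 26596 own peaks was tested in the same way against the other own peaks of its gene. Fitted and adjusted together, 13 own peaks departed (0.0489%), against 22 shared pairs (1.39%). The median absolute departure was 0.18 in shared pairs and 0.10 in own peaks. The same order held in each of 3 bands of total count. Shared peaks departed in 1.70%, 0.76% and 1.71% of pairs in the low, middle and high band, against 0.113%, 0.0110% and 0.0131% of own peaks. With the replicate block 84 pairs departed, and without cadmium replicate 3 there were 22.

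**Figure D1:**
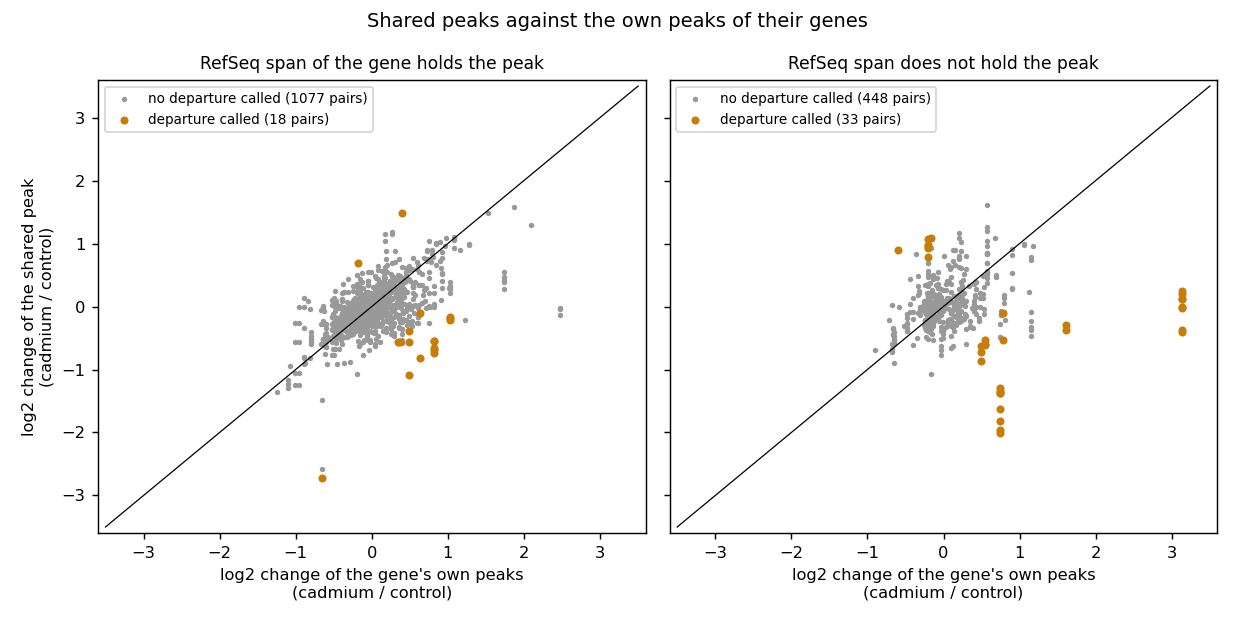
Log2 change (cadmium over control) of the shared peak against that of the summed own peaks of 1 of its genes, for 1095 pairs where the RefSeq span of the gene holds the peak (left) and 481 where it does not (right). Each point is a pair, orange where a departure was called (18 and 33 pairs), and the line marks equal change; points in a column share a gene, and the orange column at 3.14 on the right is Cx3cr1.

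The pairs were split by position. Where the gene did not hold the peak, 33 of 481 pairs departed (6.86%). Where it held the peak, 18 of 1095 departed (1.64%). Per gene, 9 of 198 genes had a departing peak they did not hold (4.55%), and 11 of 702 had a departing peak they held (1.57%). The median absolute departure was 0.27 for pairs not held and 0.16 for pairs held. Across pairs, the changes of shared and own peaks correlated at r = 0.08 where the gene did not hold the peak (n = 481 pairs) and at r = 0.56 where it did (n = 1095 pairs). Pairs share samples, genes and peaks, so no p is given. Without Cx3cr1 the first value was 0.12 (n = 473), and without Cx3cr1 and Camta1 17 of 462 pairs not held departed (3.68%). The difference between the positions was not itself tested.

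Cx3cr1 showed the widest gap. Its 4 own peaks summed to 11.5, 16.1 and 18.9 CPM in cadmium samples, against 1.39, 2.41 and 1.47 CPM in control samples, a log2 change of 3.14. The groups were far apart, and each of its 4 own peaks was called higher. Its 8 shared peaks carried the names of Wdr48, a partner of deubiquitinases, Gorasp1, a Golgi stacking protein, or Csrnp1, a nuclear protein. The peak at chr9:119924720-119926192, named Wdr48/Cx3cr1/Gorasp1, had 33.7, 37.8 and 35.7 CPM in cadmium samples and 33.8, 39.4 and 34.9 CPM in control samples. Its groups overlapped fully, and it departed from Cx3cr1 by -3.15 (95% interval -3.67 to -2.63, adjusted p = 0.000322). All 8 shared peaks departed from Cx3cr1, by -3.53 to -2.89, and none of them was called, with log2 changes of -0.41 to 0.25. Each of the 8 departures was called without any 1 of the 6 samples. Of 4 Kupffer cell markers, 3 had own peaks (Adgre1 had none). Their sum was 183 to 240 CPM in cadmium samples and 108 to 168 CPM in control samples, a smaller rise than that of Cx3cr1. Of their 9 peaks 2 were called, against 6.27% of all peaks. Marker sums also separated the groups upward for stellate cells (59.4 to 81.8 CPM in cadmium samples, 42.4 to 53.3 CPM in control samples). Those of T and B cells did so too (3.24 to 4.76 CPM against 2.24 to 2.95 CPM). Sums of hepatocyte, endothelial and biliary markers overlapped between the groups. The part of any of these cell types in the change of Cx3cr1 was not tested.

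The Per3/Camta1 peaks also departed from a gene that did not hold them. Of the 11, 8 departed from Camta1, by -2.75 to -2.04, with adjusted p of 0.00197 to 0.0256. Of these 8 departures, 4 were called whichever sample was left out. The other 4 were lost without cadmium replicate 3, with adjusted p up to 0.109, 3 of the 4 also without control replicate 3 and 1 also without cadmium replicate 2. The own peak of Camta1 rests on 1 peak of low count. At Fgf1/Arhgap26 on chromosome 18, 5 of 6 shared peaks departed from Arhgap26, a GTPase-activating protein, by -1.55 to -1.37. Arhgap26 had 2 own peaks, summing to 9.62, 7.99 and 7.92 CPM in cadmium samples and 4.79, 5.04 and 4.62 CPM in control samples (log2 change 0.82). The peak at chr18:38840822-38842143 had 92.2, 106 and 96.3 CPM in cadmium samples, against 133, 155 and 144 CPM in control samples, so that both kinds of peak separated the groups in opposite directions. The spans of both genes held these peaks, and Fgf1, a fibroblast growth factor, had no own peak. All 5 departures were called whichever sample was left out.

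At Mir22hg 2 of 3 shared peaks fell, while the own peaks of Tlcd2, the neighbouring gene, had log2 changes of 0.39 to 0.62, none of them called. The peak at chr11:75465098-75466275 had 63.7, 59.4 and 46.4 CPM in cadmium samples, against 93.4, 123 and 93.9 CPM in control samples (log2 change -0.87, SE 0.17, adjusted p = 0.0175). The groups did not overlap. The peak that overlaps the miR-22 hairpin, at chr11:75463744-75463938, had 11.9, 12.3 and 12.0 CPM in cadmium samples and 17.6, 23.5 and 18.8 CPM in control samples (log2 change -0.72, adjusted p = 0.0242). The 3 own peaks of Tlcd2 summed to 139, 106 and 151 CPM in cadmium samples and 91.9, 82.1 and 109 CPM in control samples, a log2 change of 0.49 with overlapping groups. All 3 shared peaks departed from Tlcd2, by -1.35 to -1.11 (adjusted p = 0.0248 to 0.0304), and lay outside its span. Without cadmium replicate 1 or cadmium replicate 3 none of the 3 departures was called, and without cadmium replicate 3 the adjusted p of the largest peak's own fall was 0.0991.

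Tacc2, a centrosomal protein, shares 7 peaks with Fgfr2, with log2 changes of 0.56 to 1.07, and 3 of them were called higher. The peak at chr7:130624303-130626784 had 49.2, 42.0 and 56.6 CPM in cadmium samples and 20.8, 22.4 and 31.9 CPM in control samples (log2 change 0.98, SE 0.19, adjusted p = 0.0171). Fgfr2 had 8 own peaks, summing to 239, 189 and 186 CPM in cadmium samples and 235, 196 and 278 CPM in control samples, a log2 change of -0.21. Of these own peaks 5 lie inside the span of Fgfr2, with log2 changes of 0.00 to 0.49, and 1 peak outside it carries most of the count, at a mean of 150.2 CPM in cadmium samples and 187 CPM in control samples (log2 change -0.31). Of the Tacc2/Fgfr2 peaks 4 departed from Fgfr2, by 1.01 to 1.28, and so did 1 peak named Htra1/Fgfr2, by 1.13. None of these 5 departures was called against the own peaks inside the span alone, where they were 0.63 to 0.90 (adjusted p = 0.197 to 0.446). The 48 peaks that Fgfr2 shares with other genes than Tacc2 had log2 changes of -0.51 to 0.96 with a median of -0.07, and none was called. Tacc2 had no own peak.

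The Olfr56 label covered peaks outside that gene. Of its 17 shared peaks, 9 were called higher and none lower, and the span of Olfr56 held none of the 17. Those of Ifi47, Tgtp1 and Tgtp2, GTPases that interferon induces, were 8, of which 7 were called, with log2 changes of 0.69 to 1.62. The Ifi47/Olfr56 peak at chr11:49095357-49096888 had 58.2, 87.6 and 78.5 CPM in cadmium samples, against 31.0, 34.7 and 27.5 CPM in control samples (log2 change 1.27, SE 0.18, adjusted p = 0.00392). The groups did not overlap, and the call held without any 1 of the samples. The Tgtp1/Olfr56 peak at chr11:48987146-48987966 had 23.7, 29.4 and 26.9 CPM in cadmium samples and 13.3, 17.4 and 10.6 CPM in control samples (log2 change 0.95, SE 0.19, adjusted p = 0.0183). Leaving out replicate 3 of the cadmium samples ended the call at an adjusted p of 0.0796, and leaving out that of the control samples did so at 0.0659. The 9 peaks shared with 9930111J21Rik1 or 9930111J21Rik2, whose names end in a digit and so pass the rule, had log2 changes of 0.37 to 0.86, and 2 were called. The 2 own peaks of Olfr56 had a summed log2 change of 0.57, and none of the shared peaks departed from it. None of Ifi47, Tgtp1 and Tgtp2 had an own peak, so these genes appear in the table under a shared name only.

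**Figure D2:**
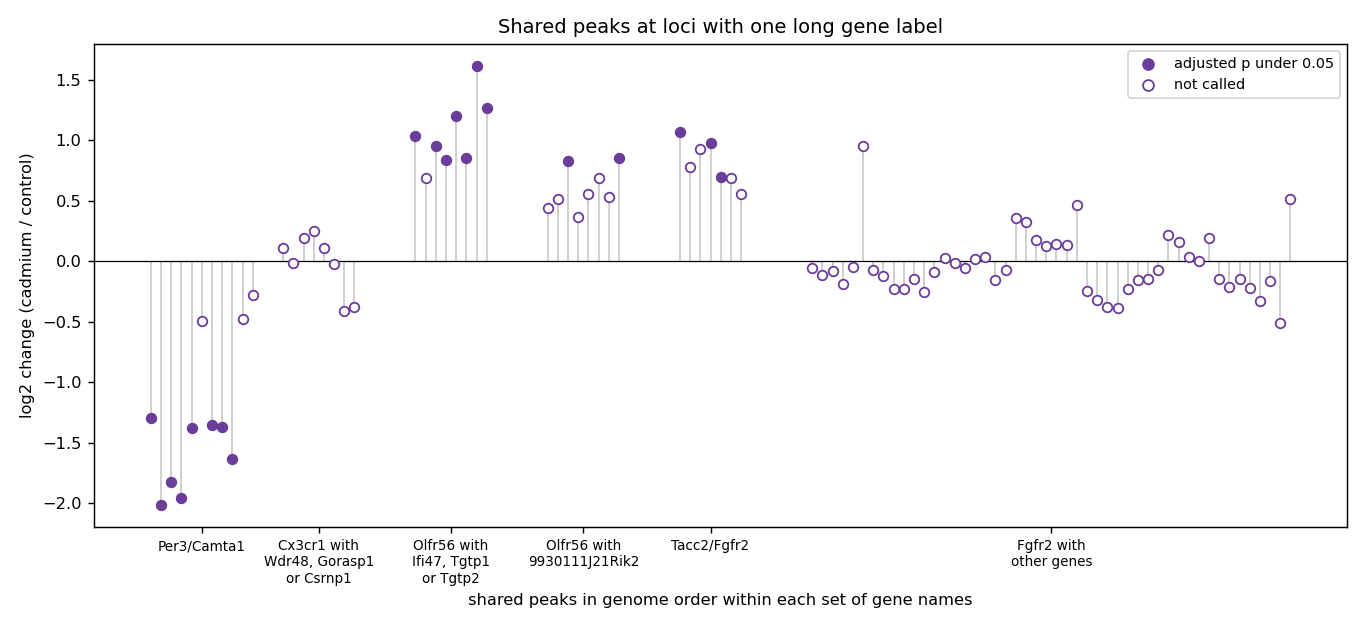
Log2 change (cadmium over control) of each shared peak in 6 sets of gene names, in genome order within a set; filled circles had an adjusted p under 0.05. The Per3/Camta1 peaks run from -2.01 to -0.27, the 8 Cx3cr1 peaks lie near 0, the Olfr56 sets lie above 0 throughout, and the Fgfr2 peaks named with Tacc2 lie at 0.56 to 1.07.

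A shared peak can be assigned between 2 genes only where their own peaks change differently. Among 202 pairs of genes that share a peak and both have own peaks, 12 differed in the same ratio test (5.94%, adjusted p under 0.05), and 43 had an unadjusted p under 0.05. These 12 pairs share 22 of the 338 peaks with tested own peaks for both genes. The nearer gene is the one from which the shared peak departed less. The departure from the nearer gene was 0.0086 to 0.46 in absolute size with a median of 0.09, and that from the other gene 0.56 to 2.41 with a median of 1.11. These sizes follow in part from how the peaks and the nearer gene were chosen, and they are given as a description. A departure from the other gene was called in 8 of the 22 peaks, and from the nearer gene in 0. This set of gene pairs was not stable: no pair differed without control replicate 1 or without control replicate 3, 8 to 11 of the 22 peaks were still in it without any 1 of the others, and it held 64 peaks with the replicate block. Within the 22, the nearer gene was the same in 21 or 22 of them in each of the 6 leave-outs.

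Position was not used to choose the peaks or the nearer gene. Abundance was not a criterion either, but it is not independent of the choice. Some pairs entered through a large change in a gene of low count, such as Lnx1 (2.47, 293 counts in total) and Amz1 (1.61, 769 counts). The shared peaks of Lnx1 and Amz1 changed less and lay nearer to the gene with the larger own count. The split by abundance is thus a description. In 20 of the 22 peaks the nearer gene was the one with the larger own count, against 191 of all 338 peaks. In 11 of the 22, exactly 1 of the spans held the peak, and the nearer gene was the one that held it in 11 of 11, against 115 of 163 over all 338. The gene that held the peak also had the larger own count in 11 of 11, against 106 of 163. Abundance and position therefore cannot be told apart in these peaks. These 11 peaks come from 5 gene pairs, 6 of them from Pdcd11/Calhm2, so they are not independent. In 10 of the other 11 peaks both spans held the peak and in 1 neither did. Distance did not sort them: the closest own peak belonged to the nearer gene in 7 of 22 peaks, against 148 of 338. 

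**Figure D3:**
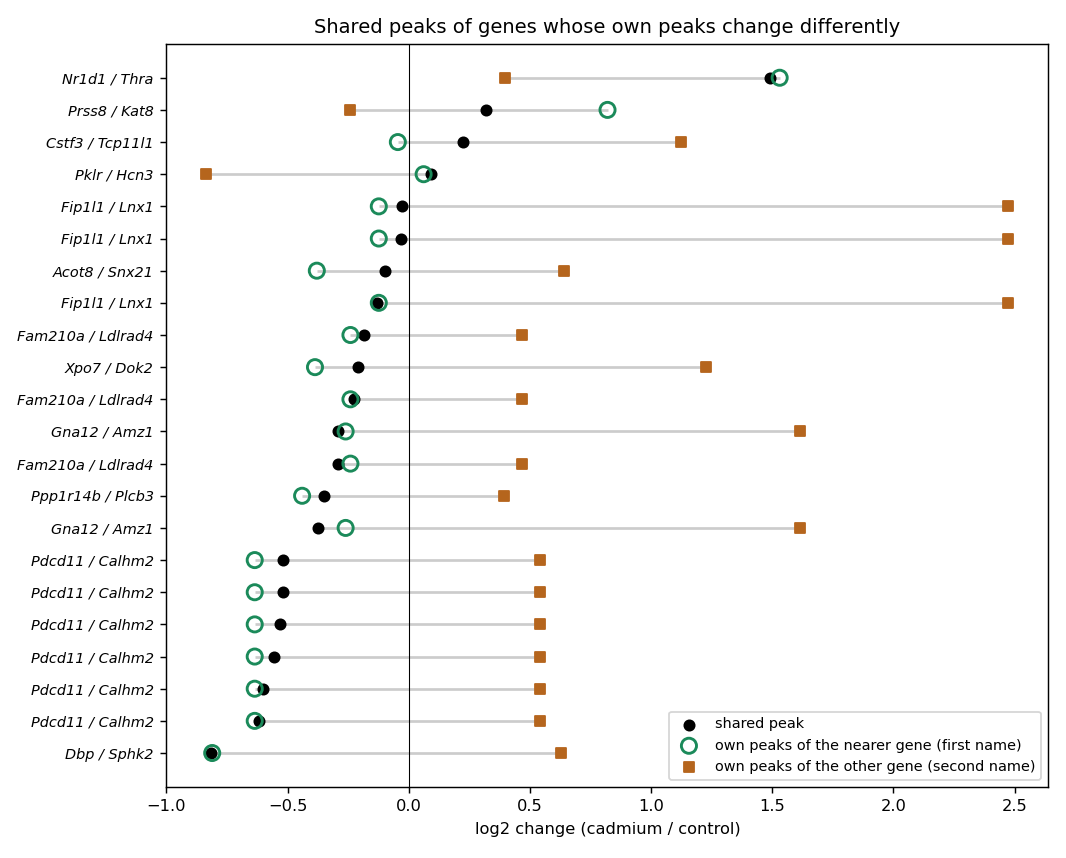
Log2 change (cadmium over control) of the 22 shared peaks whose genes' own peaks change differently (black), of the own peaks of the nearer gene (open green circles, first name) and of the other gene (brown squares, second name). The black points lie at or beside the green circles; Prss8/Kat8, at 0.32 between 0.82 and -0.24, is the most even.

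Nr1d1, which encodes the clock repressor REV-ERB alpha, and Thra, the thyroid hormone receptor alpha, end on each other on opposite strands. Their shared peak at chr11:98767962-98768361 had 39.7, 40.1 and 38.5 CPM in cadmium samples, against 16.5, 8.07 and 17.6 CPM in control samples. The groups did not overlap, the control samples being the more spread, and the log2 change was 1.49 (SE 0.25, adjusted p = 0.00858). The 2 own peaks of Nr1d1 summed to 98.5, 76.5 and 75.9 CPM in cadmium samples and 30.9, 16.7 and 39.2 CPM in control samples, a log2 change of 1.53. Those of Thra summed to 6.55, 6.98 and 7.73 CPM in cadmium samples and 5.74, 4.56 and 5.84 CPM in control samples, a log2 change of 0.40. The shared peak departed from Nr1d1 by -0.03 (95% interval -0.41 to 0.35) and from Thra by 1.16 (0.66 to 1.66, adjusted p = 0.0226). The departure from Thra was lost without any 1 of the cadmium replicates, with an adjusted p of up to 0.0716, while the rise of the peak itself was called in every alternative.

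Dbp, a circadian transcription factor, and Sphk2, a sphingosine kinase, also overlap tail to tail. Their shared peak at chr7:45709581-45710111 had 42.4, 106 and 81.8 CPM in cadmium samples and 146, 121 and 139 CPM in control samples. All control samples were above all cadmium samples, but cadmium replicate 2 came close, and the log2 change of -0.82 (SE 0.27) was not called (adjusted p = 0.103; 0.0396 without cadmium replicate 2). The 3 own peaks of Dbp summed to 85.4, 179.6 and 138 CPM in cadmium samples and 269, 189 and 249 CPM in control samples, a log2 change of -0.81. The 5 own peaks of Sphk2 moved the other way, at 149, 152 and 163 CPM in cadmium samples and 98.0, 102 and 99.99 CPM in control samples, a log2 change of 0.63. The shared peak departed from Dbp by -0.05 (95% interval -0.39 to 0.29) and from Sphk2 by -1.54 (-2.20 to -0.88, adjusted p = 0.0221). The departure from Sphk2 was lost without cadmium replicate 3, control replicate 1 or control replicate 3, at adjusted p up to 0.0919. In the cadmium samples, the low replicate 1 and high replicate 2 of the shared peak recur in Dbp. Over the 22 peaks, deviations of replicates from their group means lay closer to those of the nearer gene in 18, against 208 of all 338. In 20 of the 22 the nearer gene had the larger own count, and smaller counts vary more between replicates. The 22 peaks also come from only 12 gene pairs. The count of 18 is thus a description that is not independent of abundance.

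**Figure D4:**
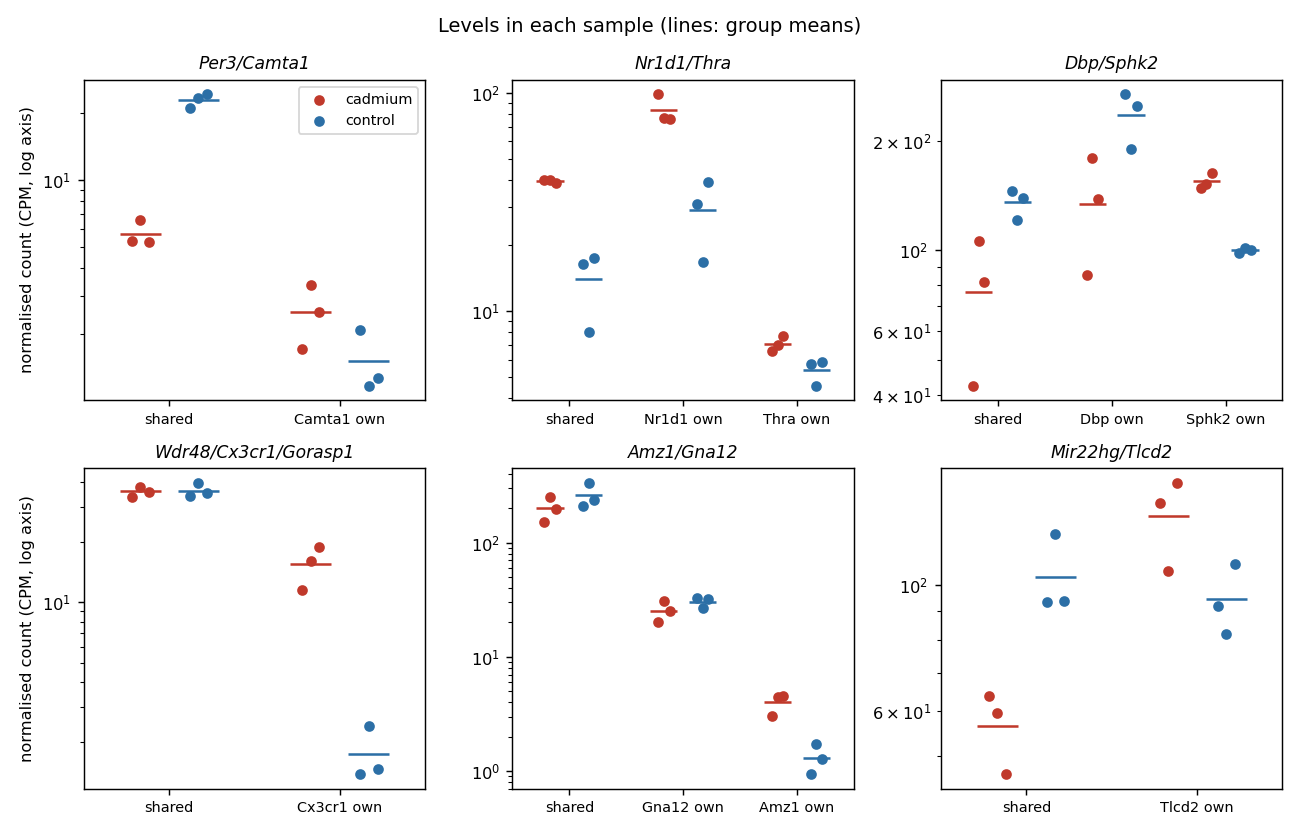
Normalised counts (CPM, log axis) in each cadmium (red) and control (blue) sample for 6 shared peaks and for the summed own peaks of their genes, with group means as lines; levels of different genes are not per length and are not to be compared. In Nr1d1/Thra and Dbp/Sphk2 the shared peak moves with the first gene, and in Wdr48/Cx3cr1/Gorasp1, Per3/Camta1 and Mir22hg/Tlcd2 it does not move with the gene that has own peaks.

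At Amz1/Gna12, 2 peaks stayed with Gna12, an alpha subunit of a G protein. The peak at chr5:140759823-140761135 had 152, 253 and 197 CPM in cadmium samples and 209, 333 and 238 CPM in control samples, with overlapping groups and a log2 change of -0.38. Gna12 had a log2 change of -0.26 in its own peaks. Amz1, a metalloprotease, had 3.05, 4.41 and 4.53 CPM in its 1 own peak in cadmium samples, against 0.937, 1.71 and 1.27 CPM in control samples, a log2 change of 1.61. Both shared peaks departed from Amz1, by -2.01 and -1.94, whichever sample was left out, and lay outside its span. Within the groups, however, replicates of the peak at chr5:140759823-140761135 varied more like those of Amz1. The root mean square difference in deviations from group means (log2 CPM) was 0.15 from Amz1 and 0.36 from Gna12. For the other peak it was 0.26 from Amz1 and 0.22 from Gna12. At Pdcd11/Calhm2, 6 peaks in the span of Pdcd11, a ribosomal RNA processing factor, had log2 changes of -0.62 to -0.52, none of them called. The own peaks of Pdcd11 had a log2 change of -0.64 and those of Calhm2, a channel protein, of 0.54. Of the 6 peaks, 3 departed from Calhm2, by -1.19 to -1.10 (adjusted p = 0.0304 to 0.0467), and each of the 3 was lost without any 1 of the samples other than control replicate 2.

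At Lnx1/Fip1l1, 3 peaks lay nearer to Fip1l1, a factor of messenger RNA polyadenylation, with log2 changes of -0.13 to -0.03 against -0.12 in its own peaks. Lnx1, a ubiquitin ligase, had 3.24, 0.850 and 1.37 CPM in its 1 own peak in cadmium samples and 0.285, 0.299 and 0.385 CPM in control samples, so its log2 change of 2.47 rests on low counts. At Fam210a/Ldlrad4, on chromosome 18, 3 peaks had log2 changes of -0.29 to -0.18, beside -0.24 for Fam210a, a mitochondrial protein, and 0.47 for Ldlrad4, an inhibitor of TGF-beta signalling. The Hcn3/Pklr peak at chr3:89145807-89146805 had 182, 107 and 130.4 CPM in cadmium samples and 181, 76.8 and 136 CPM in control samples. Its groups overlapped, and its log2 change of 0.09 lay beside 0.06 for Pklr, the liver pyruvate kinase, and -0.83 for the ion channel Hcn3. The Dok2/Xpo7 peak (-0.21) lay nearer to Xpo7, a nuclear export receptor (-0.39), than to Dok2, an adaptor of blood cells (1.22). The Ppp1r14b/Plcb3 peak (-0.35) lay nearer to Ppp1r14b, a phosphatase inhibitor (-0.44), than to Plcb3, a phospholipase C (0.39). The Tcp11l1/Cstf3 peak (0.22) lay nearer to Cstf3, a 3' end cleavage factor (-0.05), than to Tcp11l1 (1.12). In the Acot8/Snx21 and Kat8/Prss8 peaks the nearer gene had the smaller own count. Acot8, a peroxisomal thioesterase, had a log2 change of -0.38 and Snx21, a sorting nexin, of 0.64, with the shared peak at -0.10. Prss8, the protease prostasin, had 0.82 and Kat8, a histone acetyltransferase, had -0.24, with the shared peak at 0.32. Of the gene pairs in this paragraph, a departure was called only for Acot8/Snx21, from Snx21 (-0.75, adjusted p = 0.0362). For the others neither departure was called, with adjusted p for the other gene of 0.0511 (Hcn3/Pklr) to 0.328 (Tcp11l1/Cstf3).

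Other falls among called shared peaks above the median count included chaperone and transcription factor genes. Hspa8, a constitutive HSP70 chaperone, shares with the small nucleolar RNA Snord14e a peak at chr9:40804148-40805153 with 269, 326 and 300.2 CPM in cadmium samples and 566, 560.2 and 596 CPM in control samples (log2 change -0.95, SE 0.13, adjusted p = 0.00374). The own peak of Hspa8 had a log2 change of -1.08. The Tmem189/Cebpb peak at chr2:167688989-167690366, held by Cebpb, a liver transcription factor, and not by Tmem189, had 227, 359.9 and 329 CPM in cadmium samples and 505, 626 and 814 CPM in control samples (log2 change -1.09, SE 0.21, adjusted p = 0.0161). It was lost without replicate 3 of either group (adjusted p = 0.0614 without cadmium replicate 3 and 0.0633 without control replicate 3).

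The Tspan4/Chid1 peak at chr7:141493058-141493401 was lower in cadmium samples (log2 change -1.09, SE 0.18, adjusted p = 0.00763), while the own peak of Chid1, a chitinase-domain protein, had 33.7, 36.4 and 41.3 CPM in cadmium samples and 22.1, 28.1 and 29.3 CPM in control samples. The shared peak itself had 11.6, 15.3 and 13.8 CPM in cadmium samples and 32.1, 31.5 and 23.1 CPM in control samples. The 2 kinds of peak thus separated the groups in opposite directions, a departure of -1.58 (adjusted p = 0.00577) that was called whichever sample was left out. The spans of both genes held the peak, and Tspan4, a tetraspanin, had no own peak. Smaller falls were seen for Slc15a4/Glt1d1 (-0.92), LTO1/Ccnd1 (-0.89), Hsd3b2/Zfp697 (-0.89) and a pair of Rapgef4os3/Rapgef4 peaks (-0.82 and -0.81). Each of these 5 was called with all samples and lost in at least 4 of the alternatives. The LTO1/Ccnd1 peak lay beside Ccnd1, the cell cycle regulator cyclin D1 (-0.88), rather than LTO1 (-0.37), without a called departure from either.

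Rises above the median count outside the Olfr56, Tacc2 and Nr1d1 loci that are given here were of 1.86-fold to 2.12-fold. The Gmpr/Atxn1 peak at chr13:45553487-45554022 had 15.5, 12.8 and 14.8 CPM in cadmium samples and 6.01, 7.51 and 6.77 CPM in control samples (log2 change 1.09, SE 0.16, adjusted p = 0.00474). The span of Atxn1, a transcriptional co-repressor, held it and that of Gmpr, a guanosine monophosphate reductase, did not, and their own peaks had log2 changes of 0.97 and 0.68. The Mafk/Tmem184a peak (0.97) lay beside Mafk, a small Maf transcription factor (0.96), which held it, and Tmem184a (1.18) did not hold it. The Rtn4ip1/Crybg1 peak (0.89) was held by Crybg1 (0.72) and not by Rtn4ip1 (0.12). The Cyren/Tmem140 peak (1.00) had beside it Tmem140 at 0.84. The Klhdc7a/Mir2139 peak at chr4:139964547-139967580 had 129, 196 and 182 CPM in cadmium samples and 83.9, 83.4 and 85.6 CPM in control samples (log2 change 1.00, SE 0.17, adjusted p = 0.00838), against 0.84 in the own peaks of Klhdc7a. Of these 5 peaks, that of Gmpr/Atxn1 was called in every alternative, and the other 4 were lost without cadmium replicate 3 at adjusted p of 0.0520 to 0.106.

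Lists of liver genes, taken up with earlier results of these data known, are read against the 6.27% of all peaks that were called. Of 21 circadian genes, 5 share a peak, in 15 peaks, of which 9 were called lower and 1 higher. The median log2 change of the 15 was -1.35, 11 of them being in Per3, beside -0.0031 over all tested peaks. Of 23 conjugation genes 11 share 22 peaks, mostly the Ugt1a glucuronosyltransferases, whose alternative first exons run into common exons, and 0 of the 22 were called. Of 18 heat shock and ER stress genes 2 share a peak, and that of Hspa8 fell. Acute phase and interferon genes had 3 of 25 with a shared peak (B2m, Igtp and Irgm2) and 0 of 6 peaks called. That list leaves out other interferon-induced genes with shared peaks. Among them are Ifi47, Tgtp1 and Tgtp2 (7 of 8 peaks called higher) and Gbp8 with Gbp9 (3 of 6). The m6A machinery had Rbm15b, of the writer complex, with 0 of 3 called. No listed gene of metal handling or of bile acid and sterol metabolism shares a peak.

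Of the 5 most abundant shared peaks, 4 belonged to clustered families of secreted protease inhibitors. The other carried CT010467.1 and AY036118, a non-coding transcript in RefSeq, and averaged 1168 CPM in cadmium samples and 1340.0 CPM in control samples, a log2 change of -0.20 that was not called (adjusted p = 0.558). The Serpina3k/Serpina3m peak at chr12:104340512-104341209 had 1439, 1564 and 1263 CPM in cadmium samples and 1425, 1122 and 1591 CPM in control samples, with overlapping groups and a log2 change of 0.04. The larger Serpina1d/Serpina1b peak had 1208, 1034 and 1241 CPM in cadmium samples and 1142, 1085 and 1266 CPM in control samples, a log2 change of -0.0042. Family members are near copies of each other, and their separate values are uncertain. At the protocadherin gamma cluster on chromosome 18, 19 peaks carry Pcdhga1 among other names, all with log2 changes above 0 (0.10 to 1.03), and 2 were called. Both were lost without cadmium replicate 3, at adjusted p of 0.141 and 0.121. The 12 Hnf4aos/Hnf4a peaks, where a non-coding transcript lies opposite the hepatocyte nuclear factor HNF4 alpha, had log2 changes of -0.29 to 0.21, and none was called. The own peaks of Hnf4aos had a log2 change of 0.04 and those of Hnf4a of -0.40, and none of the shared peaks departed from either.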

How the data were processed

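The m6A immunoprecipitated RNA in 3 cadmium and 3 control liver samples was analysed, and input counts were not used here. The deposited table gives raw counts per peak over 1 common set of peaks, with gene symbols, coordinates on mm10, and the authors' own log2 fold change, p-value and adjusted p-value per peak, which were not used as results here. Per the submitters' processing notes, MACS2 2.1.1, STAR 2.7.1a, cutadapt 1.1.8, DESeq2 (written as 4.1.0) and SAMtools 1.3.1 are named with the build mm10, without roles. Not given in the sources used here are settings, the handling of strand and duplicates, and whether peaks were called on pooled samples. The count columns are headed by library numbers that the IP and input libraries share, and reading them as IP counts is an assumption based on the rows being m6A peaks. Whether the deposited starts count from 0 is not stated, and coordinates are given as deposited.

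Counts were fitted over all peaks with edgeR 4.0.16 in R 4.3.3 (TMM, filterByExpr with a minimum count of 10, quasi-likelihood F test, Benjamini-Hochberg over 37088 peaks, called under 0.05). The standard error (SE) was taken as the size of the log2 change over the root of F. The ratio tests compare shared with own counts, or own with own counts of 2 genes, in an edgeR model with a term for each sample, the kind of count and its interaction with group, adjusted over all pairs. Intervals are at 95%. Gene spans came from RefSeq GRCm38.p6, in which 1871 of 1919 genes were placed. The scripts were tested on simulated data.

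Named were the 12 largest rises and 12 largest falls among called shared peaks at or above the median CPM of tested peaks, the shared peaks whose genes differ in their own peaks (the rule asked for the 15 with the largest difference, and all 22 are given), the 8 largest departures from every gene with own peaks, the 5 peaks with the most symbols, the 5 most abundant, and listed genes with a called shared peak. Pelo, Mir22, Mir2139, Tgtp1 and Tgtp2 sequences, and genes with many shared or departing peaks, were chosen after their values were seen. Some peaks that the rule names are not reported here. The members and lists were chosen with earlier results of these data known. The replicate block uses the replicate numbers of the labels. Deviations from group means correlated at 0.16, 0.232 and 0.196 for samples with the same number, against -0.19 to 0.0175 for others. Deviations from a mean of 3 samples are tied to each other, so these weak values cannot decide whether the numbers pair the samples. The main tests use no pairing, and the replicate block is given as an alternative. Alternatives were DESeq2 size factors, DESeq2 1.42.0, limma 3.58.1 on log2 ratios of CPM (pseudocount 0.5), other count filters, the replicate block, other definitions of own peaks, and each sample left out in turn. The range of peak counts per sample, 40174736 to 52338612, limits precision, and intervals cover counting error and the spread between these samples.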

Additional observations from a re-analysis of the deposited data

How the results depend on the processing

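The number of called shared peaks (89, or 5.01%, against 6.27% of all peaks) was 135 with the replicate block (7.59%, against 8.48%). It was 154 with DESeq2, for which the share over all peaks was not counted. When 1 sample was left out it was 16 to 79, the lowest without cadmium replicate 3. The shares were then 0.9% to 4.44%, against 1.46% to 5.33% of all peaks. Called higher were 81 with the block, 89 with DESeq2 and 5 to 57 in the leave-outs, and called lower were 65 with DESeq2 and 11 to 41 in the leave-outs. Shares over all peaks by direction were not counted for these alternatives. Of the 24 shared peaks named for their size, 8 to 21 kept their call. Pairs that departed (51) were 84 with the block, 22 when fitted together with own peaks (chosen after the data were seen) and 22 to 54 in the leave-outs; 22 of the 51, in 7 genes, were called in all 6. Peaks whose genes differ (22) were 64 with the block, 12 with the largest own peak only and 0 to 14 in the leave-outs. The nearer gene had the larger own count in 53 of 64 with the block, 10 of 12 with the largest own peak, and 0 to 10 in the leave-outs. With only the own peaks inside the RefSeq span of their gene (chosen after the data were seen), 45 pairs departed; 6 of the 51 were lost, 5 of them of Fgfr2. DESeq2 size factors, both other count filters, limma and own peaks with Gm or Rik symbols kept these counts within 1.5 times, and no named peak reversed. Of 69 named peaks, 24 lost or gained a call in at least 1 alternative. The cause was not tested. The block changed the call of 1 of the 69 named peaks, a Pdcd11/Calhm2 peak (adjusted p = 0.0382).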

Other observations

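Shared peaks also named genes of cells other than hepatocytes. Lrat, which esterifies retinol in stellate cells, has no own peak and is seen through 5 peaks shared with Rbm46os. Their log2 changes were 0.38 to 0.91 and 2 were called higher. The peak at chr3:82893800-82893910 had 5.08, 6.38 and 7.07 CPM in cadmium samples and 3.54, 2.89 and 3.47 CPM in control samples, with no overlap (adjusted p = 0.0208). The other stellate cell markers, Des, Dcn and Col1a1, summed to 59.4 to 81.8 CPM in cadmium samples and 42.4 to 53.3 CPM in control samples, with 1 of 5 peaks called, and their part in the Lrat values was not tested. Plvap, a protein of endothelial fenestrae, shares 2 peaks with Gtpbp3, a mitochondrial tRNA modifier. Both were called higher, at log2 changes of 0.76 and 0.88, beside 0.72 in the own peaks of Plvap and 0.19 in those of Gtpbp3. Endothelial markers summed to 106 to 162 CPM in cadmium samples and 108 to 155 CPM in control samples.

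Gbp8 and Gbp9, guanylate-binding proteins that interferon induces, share 6 peaks, 1 of them also with Gbp4, that Gbp8 does not hold. Their log2 changes were 0.63 to 1.17, and 3 were called higher. The peak at chr5:105083593-105083705 had 3.88, 4.12 and 3.07 CPM in cadmium samples and 1.87, 1.75 and 1.27 CPM in control samples, with no overlap (adjusted p = 0.0161). The own peaks of Gbp8 had a log2 change of 0.20, and no departure from them was called. Ciita, the activator of MHC class II genes, shares 3 peaks with Dexi, with log2 changes of 0.93 to 1.11. Of these 1 was called, at chr16:10525863-10526446, with 2.91, 3.38 and 3.74 CPM in cadmium samples and 1.32, 2.01 and 1.36 CPM in control samples (adjusted p = 0.0247). It departed from the own peaks of Dexi by 1.27 (adjusted p = 0.00896, and 0.0544 without cadmium replicate 3). The own peak of Ciita had a log2 change of 1.08, and the departure from it was 0.04 and not called. The other Dexi/Ciita peaks had no called departure from Dexi (adjusted p = 0.0511 and 0.0721).

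At Zbed4-ps1/Sult2a5 the control samples disagreed among themselves. The peak at chr7:13640056-13641669 had 2.22, 1.65 and 1.15 CPM in cadmium samples, against 0.489, 23.4 and 9.22 CPM in control samples, and was not called (log2 change -2.73, adjusted p = 0.0961). It departed from the own peaks of Sult2a5 by -1.75 (adjusted p = 0.0348), a call that held only without control replicate 1 when 1 sample was left out and was lost at adjusted p up to 0.150 without each of the others. The own peaks of Sult2a5, a sulfotransferase, had 20.5, 17.8 and 18.02 CPM in cadmium samples and 3.30, 49.4 and 36.2 CPM in control samples, with control replicate 1 lowest in both. Of the 42 peaks with a repeated symbol, 8 were called, all lower (against 6.27% of all peaks called and 2.72% called lower): 4 of Ptp4a1 (log2 change -0.81 to -0.67) and 4 of Zfp91 (-0.83 to -0.65).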
